A study of Mus musculus with 6 samples.

Results

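The TNF superfamily ligands and receptors were taken from a gene table of mouse heart RNA as every gene whose symbol begins with Tnfsf or Tnfrsf followed by a digit, together with Tnf, Lta, Ltb, Fas, Fasl, Ltbr, Cd40 and Cd27. The rule found 40 of the 55401 genes in the table. These were 15 ligands, 24 receptors and Tnfsf13os, a non-coding antisense transcript that carries the family's name but encodes no ligand. The hearts came from C57BL/6 mice aged 6 to 8 weeks, in 2 groups of 3: control mice, and mice labelled as induced with AngII (angiotensin II, Ang II), the peptide hormone that constricts vessels and raises blood pressure. Each poly(A) RNA library is labelled as 1 numbered heart, and how the replicates were kept apart is not stated. The dose, route and duration of Ang II and the treatment of the controls are not given in the sources used here, and the series title names corynoline, from which no library was analysed here. The comparison therefore asks how the transcripts of this family stood in Ang II hearts against control hearts.

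Ligands of the TNF superfamily are mostly membrane proteins that act as trimers, on the cell that carries them or after being shed, and they gather their receptors into clusters. Receptors with a death domain (TNFR1, Fas, the TRAIL receptor) can start apoptosis or necroptosis through FADD, caspase-8 and RIPK1. The other signalling receptors lack that domain, bind TRAF adaptors and switch on NF-κB and MAP kinases, and decoy receptors bind ligand without such a signal. In the heart the best studied members are TNF with its receptors, Fas, TRAIL, and the ligand TWEAK (gene Tnfsf12) with its small receptor Fn14 (gene Tnfrsf12a), which is known as a receptor induced by growth factors and injury.

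Estimated counts summed to between 51202916 and 63564869 per library. Mitochondrially encoded genes took 35.8% to 47.6% of them and 7 nuclear pseudogenes of mitochondrial sequence another 13.1% to 18.9%. Both shares were highest in control replicate 1. The libraries hold heart muscle: all 8 cardiomyocyte markers examined were above 0 in every library, with a summed level of 9280 to 14300 FPKM (the authors' measure of level, scaled to transcript length and to the library's fragments) in control and 12500 to 15300 FPKM in Ang II hearts. EdgeR's scaling factor was lowest in control replicate 1 (0.795) and next lowest in Ang II replicate 1 (0.849), against 1.027 to 1.152 in the others. The authors' FPKM do not carry these factors. Groups can therefore overlap in FPKM and be separate in counts scaled by edgeR, or the reverse. Ang II replicate 1 stood apart. The mean correlation of its log2 counts with the other 5 libraries was 0.906, against 0.939 to 0.945 for the rest, so results are also given without it. Low counts need care, because the count 4 occurred 6582 times in the table while 3 occurred 1856 and 5 occurred 1037 times. A count in these data is therefore not 1 fragment, and what 1 fragment is worth is not given in the sources used here.

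Tnfrsf12a, on which the results turn, lies on chromosome 17 from 23675445 to 23677468 on the minus strand (GRCm38; ENSMUSG00000023905) and overlaps no other gene of GENCODE M21. Its upstream sequence is shown because it is the stretch next to the start of the gene with the largest difference in the family. RefSeq promoter windows on GRCm38.p6 were matched for 31 of the 40 members. The window below covers chr17:23677469-23677699, minus strand, the 231 bases nearest the gene that lie in no annotated exon, with GC boxes (GGGCGG on either strand) in capitals.
Tnfrsf12a: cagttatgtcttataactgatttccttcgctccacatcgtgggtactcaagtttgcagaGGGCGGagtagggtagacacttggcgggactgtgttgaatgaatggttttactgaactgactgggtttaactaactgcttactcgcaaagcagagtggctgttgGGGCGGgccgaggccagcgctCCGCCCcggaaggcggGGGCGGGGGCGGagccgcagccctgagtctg
It held 5 GC boxes, 2 of them side by side, where 30% of 32851 RefSeq windows of the same length and place held at least 1. The general form of an NF-κB site, GGG and CC with any 5 bases between them, occurred at 2 places, both overlapping GC boxes, against 42.9% of windows with a match. The ETS core letters CCGGAAG occurred at 1 place, against 5.64% of windows with a match. The AP-1 letters TGANTCA, found in 6.36% of windows, and the TATA box letters TATAAA, found in 11.8%, were not in this window on either strand. The same held for the TEAD letters GGAATG, found in 11.8%, and the CCAAT box letters CCAAT, found in 32.3%. Its GC content was 57.6%, against 52.9% over all windows. These are letter matches and no measure of binding.

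Levels in the family spanned from a mean of 12 FPKM, for Tnfrsf12a, to nothing detected. A mean of at least 5 FPKM over the 6 libraries was reached by 5 members, the receptors Tnfrsf12a, Tnfrsf1a, Ltbr and Fas and the ligand Tnfsf12. Another 4 lay between 1 and 5 FPKM, namely the receptors Tnfrsf21, Tnfrsf1b and Tnfrsf25 and the ligand Tnfsf10. Between 0.1 and 1 FPKM stood 17 members, and 11 were below 0.1 FPKM in the mean without being 0 throughout. The ligand genes Tnfsf4, Tnfsf8 and Tnfsf15 had 0 counts in all 6 libraries, which allows up to 3 counts per library, or a CPM (counts scaled to edgeR's effective library size) of 0.0422 to 0.069. That limit covers counting error only, takes each count as 1 fragment, and is too low where a fragment is worth more counts. Of the 24 receptors 17 were above 0 in every library, and of the 15 ligands 4 were. Summed over all ligands the level was 9.40 to 12.5 FPKM in control and 9.66 to 10.3 FPKM in Ang II hearts, ranges that overlap. Summed over all receptors it was 34.4 to 46.0 FPKM in control and 54.1 to 56.6 FPKM in Ang II hearts, which do not overlap, and without Tnfrsf12a it was 29.9 to 40.6 and 35.3 to 37.2 FPKM, which do.

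**Figure D1:**
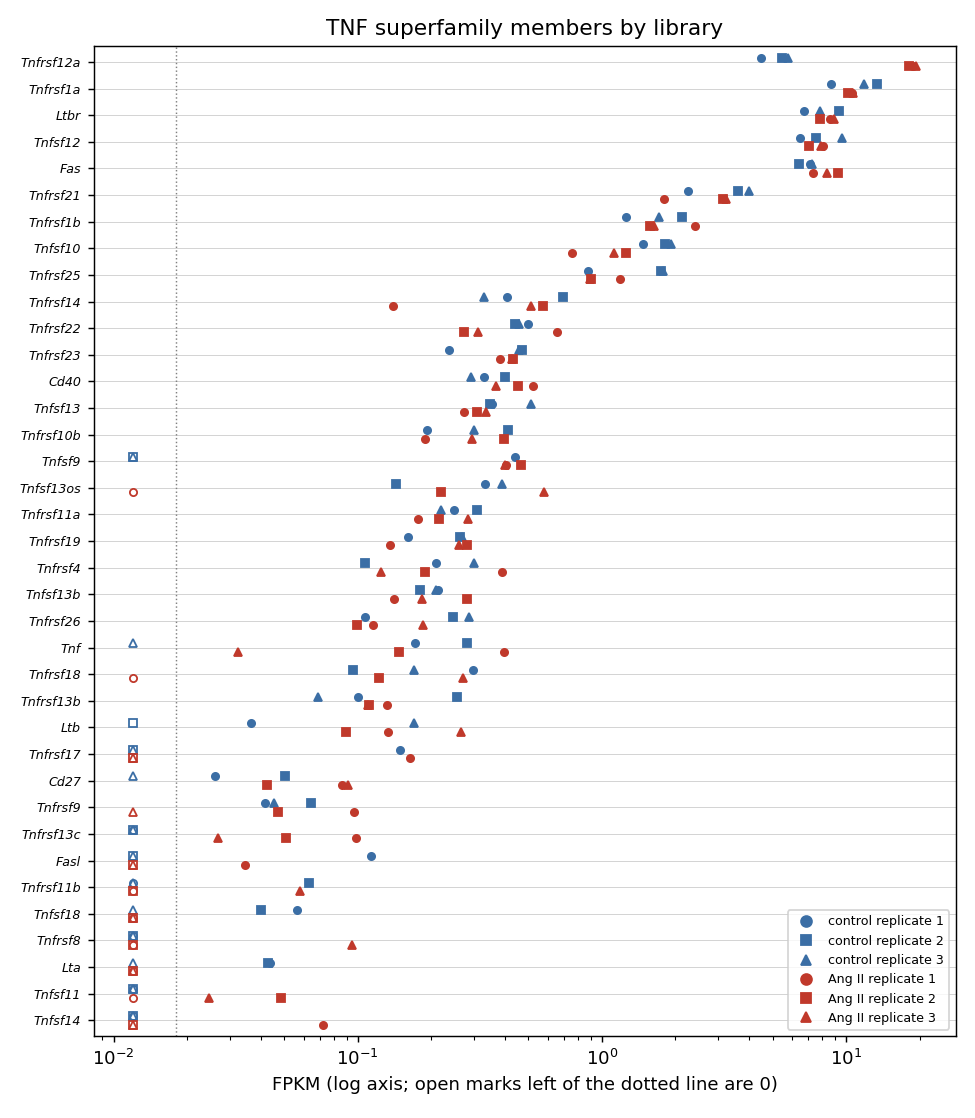
FPKM of each family member above 0 in at least 1 library (log axis, ordered by mean), with 1 mark per library, blue for the 3 control and red for the 3 Ang II hearts; open marks left of the dotted line are libraries at 0. Tnfrsf12a, in the top row, is the member whose red marks (18.1 to 19.4 FPKM) stand clear of its blue marks (4.49 to 5.80 FPKM) by the widest gap. The colours are also separate for Fas, Tnfsf10, Tnfsf13 and Tnfrsf13c, and they overlap in the other rows.

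In Ang II hearts Tnfrsf12a, the Fn14 gene, stood at more than 3 times its control level, while the levels of its ligand gene Tnfsf12 overlapped between the groups. Tnfrsf12a was at 4.49, 5.44 and 5.80 FPKM in control replicates 1, 2 and 3 and at 18.8, 18.1 and 19.4 FPKM in Ang II replicates 1, 2 and 3. In control hearts this was the lowest mean of the 5 best expressed members and in Ang II hearts the highest. All 3 Ang II libraries lay above all 3 controls, and Ang II replicate 1 lay with the other 2 in FPKM but above them in CPM (46.9, against 34.5 and 36.3). On that CPM scale the gene stood at 11.2 ± 1.06 in control and 39.2 ± 6.68 in Ang II hearts (mean ± SD, n = 3), a 3.49-fold higher level by the fit (log2 change 1.80, SE 0.18). The quasi-likelihood test of edgeR, adjusted over all genes by Benjamini-Hochberg, gave it an adjusted p of 0.0517 (unadjusted 2.53e-05), just outside the threshold of 0.05. By unadjusted p it ranked 8 among 16759 genes tested, and by size of increase 138. DESeq2 called it on the same counts (log2 change 1.82, adjusted p = 9.54e-15), as did edgeR without Ang II replicate 1 (1.66, SE 0.11, adjusted p = 0.00884). Over all alternatives run, the adjusted p went from 9.54e-15 to 0.421, the highest being edgeR without control replicate 3. The size of the change was steadier, with log2 changes from 1.66 to 1.89.

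TWEAK's gene, Tnfsf12 (ENSMUSG00000097328; chromosome 11, 69686250 to 69695849, minus strand), was the most abundant ligand transcript of the family. It was at 6.48, 7.55 and 9.66 FPKM in the control libraries and at 8.04, 7.07 and 7.88 FPKM in the Ang II libraries. The groups overlap, and in FPKM the 3 Ang II values fall inside the control range. The groups also overlap in CPM, where control values ran from 10.9 to 15.5. There Ang II replicate 1 lay just above that range at 15.8, replicate 2 just below it at 10.6, and replicate 3 inside it at 11.6. The log2 change was -0.07 (SE 0.22; edgeR adjusted p = 0.946), and its sign turned positive without control replicate 3 (0.05) or Ang II replicate 2 (0.04). Counts at this locus are uncertain, because the read-through gene Tnfsfm13 covers Tnfsf12 and Tnfsf13 on the same strand and Tnfsf13os overlaps them on the other. Tnfsfm13 was at 3.17, 3.56 and 3.46 FPKM in control and 3.82, 2.73 and 2.96 FPKM in Ang II hearts, again overlapping. It held 34.6% to 42.0% of the counts of Tnfsf12 and Tnfsfm13 together in control libraries and 35.6% to 41.2% in Ang II libraries, and these ranges overlap.

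Within a library the receptor transcript stood below the ligand transcript in every control heart and above it in every Ang II heart. The ratio of Tnfrsf12a to Tnfsf12 FPKM was 0.693, 0.721 and 0.601 in control replicates 1 to 3 and 2.34, 2.56 and 2.47 in Ang II replicates 1 to 3. This ratio does not depend on how libraries are scaled to each other. On the log2 scale it was -0.58 ± 0.14 in control and 1.29 ± 0.07 in Ang II hearts (mean ± SD, n = 3 each), a difference of 1.87 or 3.66-fold. An exact two-sided permutation test gave p = 0.10, the smallest value that 3 against 3 libraries can give. With Tnfsf12 and Tnfsfm13 summed as the ligand, an alternative chosen after seeing the data, the log2 difference was 1.90.

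**Figure D2:**
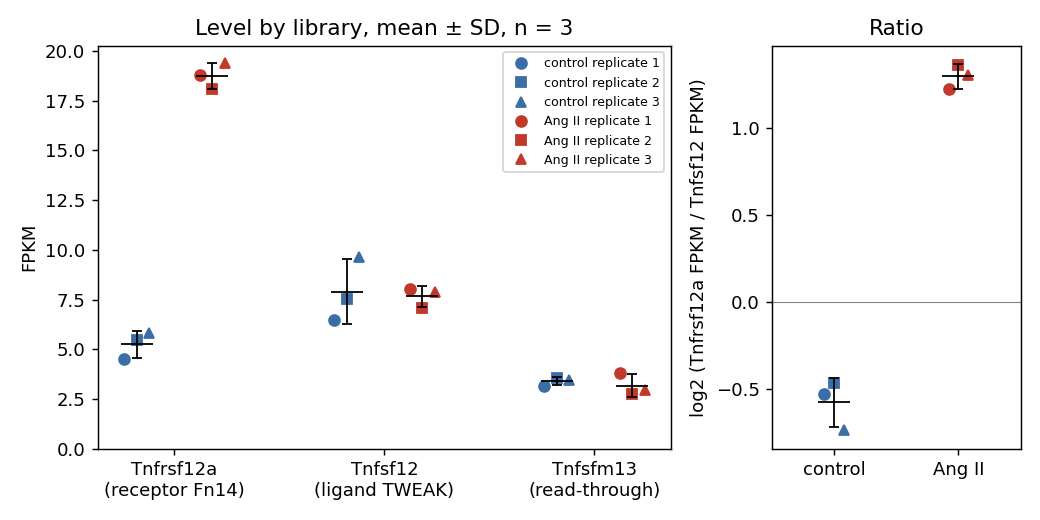
Left, FPKM of Tnfrsf12a, Tnfsf12 and the read-through gene Tnfsfm13 in each library (blue control, red Ang II), with the mean and SD of 3 libraries as bars; right, the log2 ratio of Tnfrsf12a to Tnfsf12 FPKM. Tnfrsf12a has a control mean of 5.25 and an Ang II mean of 18.8 FPKM, Tnfsf12 and Tnfsfm13 overlap between groups, and the ratio lies below 0 in all control and above 0 in all Ang II libraries.

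As a share of all counts in the family, Tnfrsf12a held 7.97%, 7.26% and 7.94% in the 3 controls and 24.4%, 23.0% and 23.7% with Ang II. Other cell types moved between the groups as well, and fewer cells of a type cannot be told apart from less RNA per cell in these whole-heart libraries. Fibroblast markers summed to 93.6 to 136 FPKM in control and 60.1 to 128 FPKM in Ang II hearts, smooth muscle markers to 104 to 165 and 104 to 149 FPKM, and macrophage markers to 65.5 to 98.3 and 70.3 to 136 FPKM. These 3 ranges overlap between groups. Ang II replicate 1 stood apart in each, at 60.1, 104 and 136 FPKM. Ang II replicates 2 and 3 were at 128 and 127 FPKM for fibroblast, 148 and 149 for smooth muscle and 70.3 and 83.5 for macrophage markers, all inside the control ranges. The median log2 change was -0.25 for fibroblast and -0.19 for macrophage markers, and -0.07 and -0.34 without Ang II replicate 1. By gene, the log2 change was below 0 for 6 of 8 fibroblast, 3 of 6 smooth muscle and 7 of 9 macrophage markers, of which 4, 1 and 3 were lower with no overlap in CPM, as were 9.21% of all genes tested. Erythroid markers did not overlap, at 1130 to 2010 FPKM in control and 603 to 639 FPKM in Ang II hearts, all 5 of 5 genes having a log2 change below 0. Adipocyte markers were scarce and did not overlap either, at 1.63 to 3.04 and 0 to 0.863 FPKM. For cardiomyocyte markers, whose summed ranges given above overlap, the log2 change was above 0 for all 8, with a median of 0.255. Of these, 1 was higher with no overlap in CPM, as were 7.97% of all genes tested. The part of cell makeup in the Tnfrsf12a difference was not tested.

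Across the family, 26 of 40 members had counts high enough to be tested and 14 did not. Of the 26, edgeR called 0 with all 6 libraries, against 0.0358% of all genes tested called higher and 0% lower. Before adjustment, p was under 0.05 for 1 member on the higher side, Tnfrsf12a, and 1 on the lower, Tnfsf10, where 3.57% and 3.94% of all genes stood so. DESeq2 called the same pair, 1 higher and 1 lower, against 0.95% and 0.699% of all genes (1.65% in either direction). CPM did not overlap between groups for 1 member higher and 1 lower, again Tnfrsf12a and Tnfsf10, while 7.97% and 9.21% of all genes tested were so separated. A count of 1 in 26 is close to these shares, other than those of the adjusted calls. The log2 change was above 0 for 10 members and below 0 for 16, with a median of -0.10 beside 0.01 over all genes. Without Ang II replicate 1, edgeR called 1 of 27 members higher, Tnfrsf12a, and 0 lower, against 0.527% and 0.204% of all genes (0.73% in either direction). Before adjustment 1 stood higher and 4 lower (Tnfsf10, Tnfrsf1a, Tnfrsf22 and Tnfrsf25) at p under 0.05, where 7.75% and 7.6% of all genes did.

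**Figure D3:**
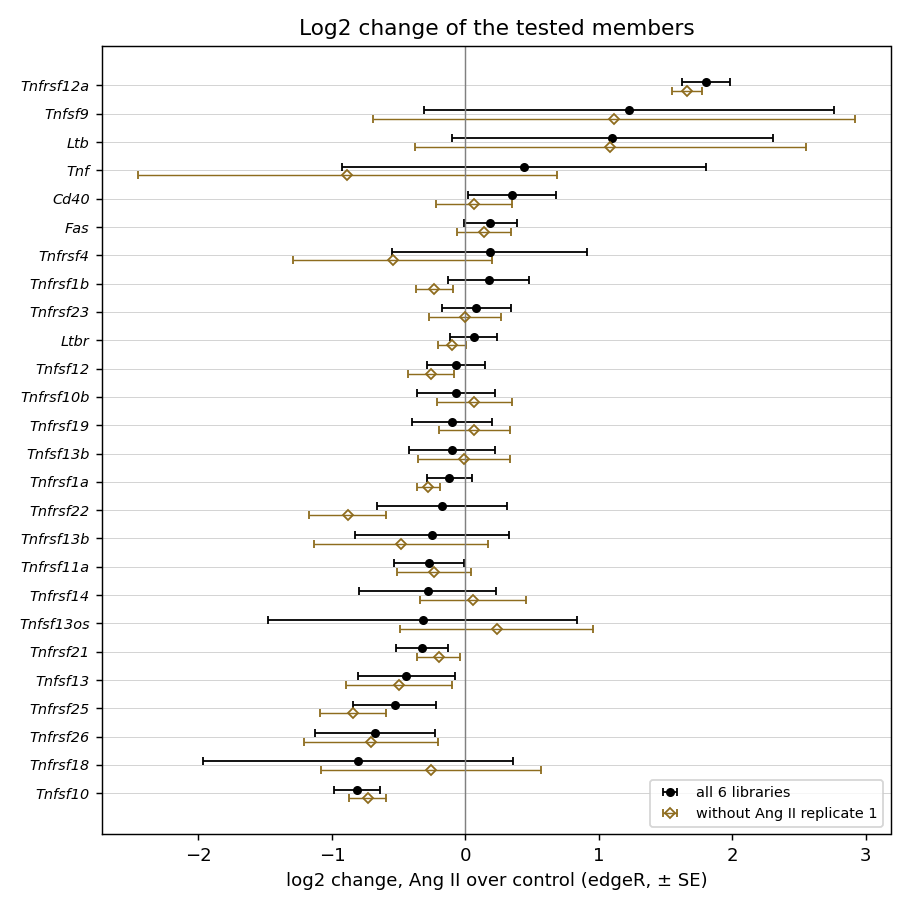
Log2 change of Ang II over control for the 26 tested members (edgeR, bars are the SE), with all 6 libraries (black) and without Ang II replicate 1 (open diamonds). Tnfrsf12a (1.80) and Tnfsf10 (-0.81) lie furthest from 0 relative to their SE; the wide bars belong to members with few counts, such as Tnf (SE 1.36) and Tnfsf9 (SE 1.54).

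Among the other ligands, Tnfsf10 differed most clearly. It encodes TRAIL, which triggers death receptors on target cells. It was at 1.48, 1.82 and 1.92 FPKM in control and at 0.754, 1.25 and 1.12 FPKM in Ang II libraries. All Ang II values lay below all controls, with the lowest in Ang II replicate 1. On the CPM scale it stood at 10.1 ± 0.911 and 5.77 ± 0.681 (mean ± SD, n = 3), 1.76-fold lower after Ang II by the fit, a log2 change of -0.81 with an SE of 0.17. Tnfsf10 missed the edgeR threshold over all genes (adjusted p = 0.343, unadjusted 0.00215, rank 102 of 16759), and missed it without Ang II replicate 1 (log2 change -0.73, adjusted p = 0.104). DESeq2 called it lower (adjusted p = 0.00559). Endothelial markers were also mostly lower by gene, 7 of 8 with a log2 change below 0 and 6 of 8 lower with no overlap in CPM (9.21% of all genes). Their sum was 113 to 155 FPKM in control and 108 to 119 FPKM in Ang II hearts, ranges that overlap. The part of endothelial cells in the Tnfsf10 difference was not tested.

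The gene of TNF itself was scarce. Tnf was at 0.172, 0.279 and 0 FPKM in control and 0.398, 0.148 and 0.0324 FPKM in Ang II libraries, from at most 37 counts. The values scatter over both groups, and Ang II replicate 1 was the highest. Its log2 change of 0.44 (SE 1.36; edgeR adjusted p = 0.945) became -0.88 without that library and -0.16 without control replicate 3. Its 2 neighbours in the same cluster, the lymphotoxin genes Lta and Ltb, were as scarce: Ltb was at most at 0.266 FPKM, and Lta had 4 counts in each of control replicates 1 and 2 and 0 in the other libraries.

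Tnfsf13, the gene of APRIL, a survival factor for plasma cells, was at 0.356, 0.349 and 0.512 FPKM in control and 0.273, 0.307 and 0.336 FPKM in Ang II libraries. These groups did not overlap in FPKM and did overlap in CPM (0.752 ± 0.175 and 0.553 ± 0.0432, n = 3), and the log2 change of -0.44 (SE 0.37) had an edgeR adjusted p of 0.799. Tnfsfm13 covers this gene as well, so its counts are uncertain. Its relative Tnfsf13b, the gene of the B cell survival factor BAFF, ranged from 0.141 to 0.280 FPKM with overlapping groups. The antisense transcript Tnfsf13os ranged from 0 to 0.581 FPKM, also overlapping. Tnfsf9, the ligand of the T cell receptor 4-1BB, was listed at 0 in control replicates 2 and 3 but at 0.440 FPKM in control replicate 1, beside 0.402 to 0.465 FPKM in Ang II hearts, and the fit gave it an SE of 1.54. Fasl, Tnfsf11 (RANKL), Tnfsf14 (LIGHT) and Tnfsf18 (the GITR ligand), with Lta and the 3 ligands at 0 throughout, were not tested; none of these 8 had more than 14 counts in a library.

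The receptors with a death domain, other than Tnfrsf10b, were among the members with a mean of at least 1 FPKM. None of the 5 was called by edgeR or DESeq2 with all 6 libraries, or by edgeR without Ang II replicate 1. Of all genes tested, 0.0358%, 1.65% and 0.73% were called in these 3 fits, so 0 of 5 is close to the shares over all genes. Tnfrsf1a, the gene of TNFR1, was at 8.70, 13.4 and 11.8 FPKM in control and 10.6, 10.2 and 10.7 FPKM in Ang II libraries. Its Ang II values lay inside the control range in FPKM but not in CPM (log2 change -0.12, SE 0.17; edgeR adjusted p = 0.877). Control CPM ran from 30.6 to 33, with Ang II replicate 1 above that range at 35.6. Ang II replicates 2 and 3 were below it, at 26 and 26.8. When Ang II replicate 1 was left out, the log2 change was -0.28 (SE 0.09; edgeR adjusted p = 0.239, unadjusted 0.0218). Fas was at 7.13, 6.41 and 7.24 FPKM in control and 7.35, 9.24 and 8.37 FPKM in Ang II libraries, while its ligand gene Fasl was at 0.113 FPKM in control replicate 1, 0.0346 FPKM in Ang II replicate 1 and 0 elsewhere. The Fas groups were separate in FPKM and overlapped in CPM (16.1 ± 3.73 and 18.4 ± 1.51, n = 3), and the log2 change was 0.19 (SE 0.20; edgeR adjusted p = 0.839). Tnfrsf1a, Ltbr, Tnfsf12 and Fas followed Tnfrsf12a in the order of mean FPKM, and the ranges of neighbours among these 4 overlapped.

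Tnfrsf21, the gene of death receptor 6, was at 2.26, 3.61 and 3.99 FPKM in control and 1.80, 3.12 and 3.23 FPKM in Ang II libraries (log2 change -0.33, SE 0.19; edgeR adjusted p = 0.737). Replicate 1 was the lowest of its group in both. Tnfrsf25, the gene of death receptor 3, was at 0.881, 1.75 and 1.78 FPKM in control and 1.19, 0.899 and 0.896 FPKM in Ang II libraries (log2 change -0.53, SE 0.31; edgeR adjusted p = 0.735). Here control replicate 1 lay with the Ang II hearts. When Ang II replicate 1 was left out, the log2 change was -0.20 for Tnfrsf21 and -0.84 (SE 0.25; edgeR adjusted p = 0.206, unadjusted 0.015) for Tnfrsf25. Tnfrsf10b, the mouse TRAIL death receptor, was at 0.193, 0.412 and 0.300 FPKM in control and 0.188, 0.397 and 0.295 FPKM in Ang II libraries. Those 2 sets of values are nearly alike (log2 change -0.07, SE 0.29; edgeR adjusted p = 0.957), although its ligand gene Tnfsf10 had separate groups; whether the changes of ligand and receptor differ was not tested. The possible TRAIL decoy genes Tnfrsf22 and Tnfrsf23 and their neighbour Tnfrsf26 are close paralogs on chromosome 7, between which reads can be split, and an antisense transcript overlaps them. Tnfrsf26 was at 0.107, 0.246 and 0.286 FPKM in control and 0.115, 0.0993 and 0.185 FPKM in Ang II libraries (log2 change -0.68, SE 0.45; edgeR adjusted p = 0.757). The groups of all 3 overlapped.

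Among the TRAF-binding receptors, 10 of 15 were tested, and Tnfrsf12a alone reached an unadjusted edgeR p under 0.05. Of all genes tested, 3.57% did so on the higher side and 3.94% on the lower. Ltbr, the lymphotoxin β receptor gene, was at 6.72, 9.39 and 7.79 FPKM in control and 8.61, 7.82 and 8.94 FPKM in Ang II libraries (log2 change 0.06, SE 0.18; edgeR adjusted p = 0.938). Tnfrsf1b, the gene of TNFR2, was at 1.25, 2.13 and 1.71 FPKM in control and 2.41, 1.57 and 1.64 FPKM in Ang II libraries (log2 change 0.17, SE 0.30; edgeR adjusted p = 0.902). Both changes turned negative without Ang II replicate 1, to -0.10 and -0.23. Cd40, a receptor of antigen-presenting cells, was at 0.330, 0.402 and 0.291 FPKM in control and 0.521, 0.452 and 0.367 FPKM in Ang II libraries, which overlap (log2 change 0.35, SE 0.33; edgeR adjusted p = 0.82). Its change was 0.07 when Ang II replicate 1 was left out. Tnfrsf11a, the gene of RANK, was at 0.247, 0.309 and 0.219 FPKM in control and 0.176, 0.216 and 0.282 FPKM in Ang II libraries (log2 change -0.27, SE 0.26; edgeR adjusted p = 0.823). Its ligand gene Tnfsf11 had 8 and 4 counts in Ang II replicates 2 and 3 and 0 elsewhere, and Tnfrsf11b, the gene of the RANKL decoy osteoprotegerin, had 12 counts in control replicate 2, 12 in Ang II replicate 3 and 0 elsewhere. The RANK system was thus close to the limit of detection apart from the receptor.

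Receptors known from lymphocytes were near 0. Cd27, Tnfrsf8, Tnfrsf9, Tnfrsf13c and Tnfrsf17, with Tnfrsf11b, were the 6 receptors not tested, and none had more than 23 counts in a library. Tnfrsf13c, the BAFF receptor gene, had 0 counts in all 3 controls and 12, 8 and 4 counts in Ang II replicates 1, 2 and 3. Against a floor of 3 counts per library, and with 4 the commonest nonzero count in the table, no fold is given. Lymphocyte markers were as low, with 4 of 12 above 0 in every library and a sum of 1.01 to 1.64 FPKM in control and 0.823 to 1.70 FPKM in Ang II hearts. The other TRAF-binding receptors, not all of them known from lymphocytes, were Tnfrsf4, Tnfrsf13b, Tnfrsf14, Tnfrsf18 and Tnfrsf19. These were tested, ranged from 0 to 0.693 FPKM and overlapped between groups.

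Many members sit beside one another in the genome, and neighbours could differ widely in level. With gaps of at most 200 kb, 22 of the 40 fall into 9 groups on GRCm38. On chromosome 6, Cd27, Ltbr and Tnfrsf1a lie within 129.3 kb (125232622 to 125361874). There Ltbr and Tnfrsf1a had means of 8.21 and 10.9 FPKM, while Cd27 stayed at or below 0.091 FPKM in every library. On chromosome 4, Tnfrsf1b and Tnfrsf8 lie within 101.7 kb (145213463 to 145315164), with a mean of 1.78 FPKM for Tnfrsf1b and counts in 1 of 6 libraries for Tnfrsf8. On chromosome 17 the Ltb, Tnf and Lta cluster spans 10.9 kb (35194439 to 35205351), far from Tnfrsf12a on the same chromosome, and all 3 of its genes were scarce in both groups.

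Genes that carry the receptors' signal were examined as a list of 36, with TRAF adaptors, RIPK1, FADD, caspase-8, the IAP ubiquitin ligases, the linear ubiquitin complex, IκB kinases and the feedback inhibitor A20. All 36 were tested. EdgeR called 0. Before adjustment 1 had a p under 0.05 on the higher side and 2 on the lower (3.57% and 3.94% of all genes), and by DESeq2 there were 0 calls higher and 1 lower (0.95% and 0.699% of all genes). Log2 changes were above 0 for 13 and below 0 for 23, with a median of -0.07 beside 0.01 over all genes, and CPM did not overlap between groups for 1 higher and 6 lower, where 7.97% and 9.21% of all genes were so separated. Without Ang II replicate 1, edgeR again called 0. Before adjustment 2 then stood higher and 7 lower at p under 0.05, where 7.75% and 7.6% of all genes did. The member called by DESeq2 (adjusted p = 0.0157) was Cflar, the gene of the caspase-8 inhibitor c-FLIP, at 0.966, 0.849 and 1.71 FPKM in control and 0.358, 0.502 and 0.626 FPKM in Ang II libraries. Its groups were separate (log2 change -1.32, SE 0.30), with an edgeR adjusted p of 0.395.

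Otulin, which removes linear ubiquitin chains from receptor complexes, was the 1 gene of that list with separate, higher Ang II values in CPM (12.2 ± 1.75 and 21.9 ± 7.48, n = 3); in FPKM Sharpin, chosen after its values were seen, was separate and higher too. Otulin was at 5.94, 7.85 and 5.71 FPKM in control and 13.7, 12.3 and 9.32 FPKM in Ang II libraries (log2 change 0.85, SE 0.27; edgeR adjusted p = 0.542). Its log2 change was 0.56 without Ang II replicate 1 (edgeR adjusted p = 0.246). Tnfaip3, the gene of A20, was at 0.322, 0.413 and 0.416 FPKM in control and 0.162, 0.325 and 0.223 FPKM in Ang II libraries (log2 change -0.76, SE 0.25; edgeR adjusted p = 0.56). Casp8 was at 2.27, 3.35 and 2.54 FPKM in control and 1.94, 2.23 and 2.29 FPKM in Ang II libraries, with a log2 change of -0.37 (SE 0.16; edgeR adjusted p = 0.667). The groups of both Casp8 and Tnfaip3 overlapped in FPKM and were separate in CPM.

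Superfamily genes that the naming rule leaves out gave no further call. Of Cd40lg, Cd70, Eda, Edar, Eda2r, Relt and Ngfr, 4 were tested, edgeR and DESeq2 called 0, and 1 had a p under 0.05 before adjustment, on the lower side, where 3.94% of all genes stood (0.0358% called by edgeR and 1.65% by DESeq2 in either direction). That gene was Eda2r, the ectodysplasin A2 receptor, at 0.163, 0.321 and 0.327 FPKM in control and 0.147, 0.118 and 0.206 FPKM in Ang II libraries (log2 change -0.79, SE 0.33; edgeR adjusted p = 0.662). Cd70, the ligand of Cd27, had 0 counts in all 6 libraries, and Cd40lg, the ligand of Cd40, had 3 counts in Ang II replicate 2 and 0 elsewhere.

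**Figure D4:**
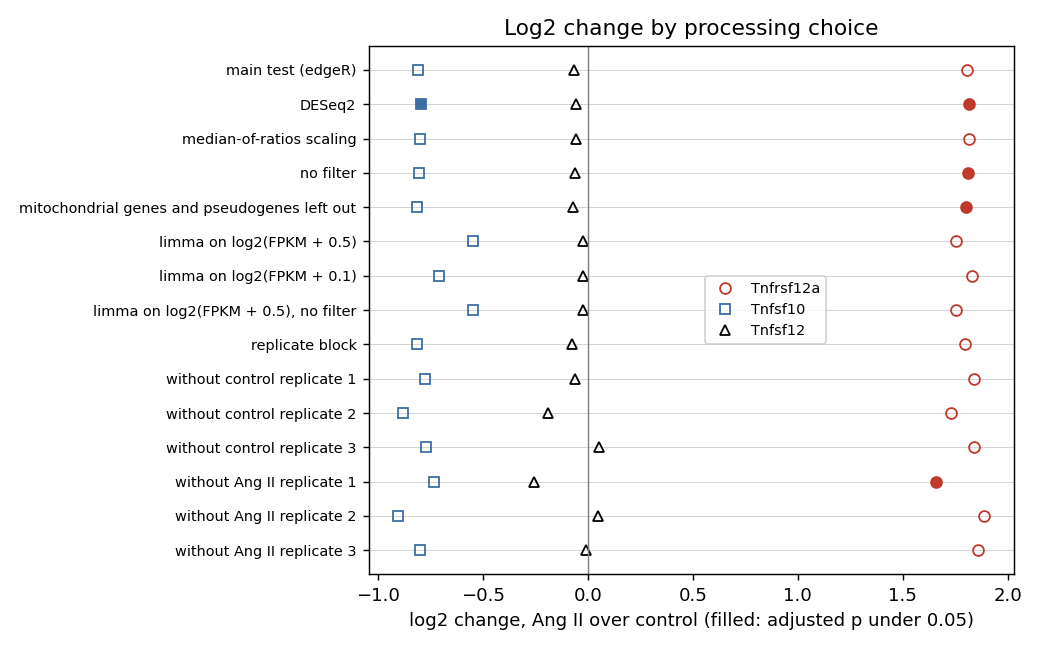
Log2 change of Tnfrsf12a, Tnfsf10 and Tnfsf12 (Ang II over control) under each test or processing choice; filled marks have an adjusted p under 0.05. Tnfrsf12a stays between 1.66 and 1.89 and is filled in 4 of the 15 rows, Tnfsf10 is below 0 in every row and filled with DESeq2 only, and Tnfsf12 lies near 0 on both sides.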

How the data were processed

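Per the labels' protocols, poly(A) RNA of 6 heart samples was sequenced as paired ends. Nothing states how the replicates were kept apart, so p-values measure the spread between these libraries. The submitters' processing notes name Bowtie 0.12.2, HISAT2 2.0, StringTie 1.3.0 and the build mm8 without their roles; the spans of 94.2% of the 55141 genes also found in GENCODE M21 match GRCm38, so positions are on that build. The authors deposited FPKM values, with 0.0001 standing for 0, and estimated counts as whole numbers, 51202916 to 63564869 per library. The rounded estimates were treated as counts, which can make edgeR's dispersions inexact.

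All genes were fitted with edgeR 4.0.16 in R 4.3.3 (filterByExpr, TMM scaling, quasi-likelihood test, two-sided), leaving 16759, with Benjamini-Hochberg adjusted p under 0.05 over all of them. The SE is the log2 change divided by the root of the F statistic. DESeq2 1.42.0, limma 3.58.1 on log2(FPKM + 0.5) of 12095 genes at 0.5 FPKM or more in 3 libraries, other scalings and filters, and each library left out in turn were alternatives. The functions were run on simulated counts with known changes, drawn at edgeR's own dispersions. Such counts differ from the authors' rounded estimates, so that run cannot show how well the tests handle these data. Named are Tnfsf12, Tnfrsf12a, the 8 other members with the smallest p, the 6 with the highest FPKM, Tnf, Fas, TRAIL and RANK pairs with their receptors, and the 4 signalling genes with the smallest p; others were chosen after their values were seen. Members and lists were chosen with earlier results of these data known. Figures used matplotlib 3.10.9.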

Additional observations from a re-analysis of the deposited data

How the results depend on the processing

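With edgeR and all 6 libraries 6 genes were called, 1258 having an unadjusted p under 0.05. DESeq2 called 276, no filter 12, limma on log2(FPKM + 0.5) 3, limma with a pseudocount of 0.1 2, and limma with no filter 1. Leaving out 1 library gave 0 to 129, the 129 without Ang II replicate 1, and 0 without each control replicate or Ang II replicate 3 (unadjusted p under 0.05 for 893, 987, 851 and 1114 genes). Of family members, DESeq2 called 2, and no filter and leaving out mitochondrial genes and pseudogenes 1 each; without 1 library the count was 0 to 1. Tnfrsf12a passed with DESeq2 (log2 change 1.82), no filter (1.81, adjusted p = 0.0275) and mitochondrial genes and pseudogenes left out (1.80, adjusted p = 0.0483), and ran from 1.66 to 1.89 without 1 library. The cause of these shifts was not tested. Tnfsf12 ran from -0.257 to 0.054 without 1 library, Tnf from -0.88 to 0.96, Ltbr from -0.10 to 0.17, Tnfrsf1b from -0.23 to 0.35 and Tnfrsf10b from -0.293 to 0.083, each changing sign. No other scaling moved the median of all genes by 0.1.

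With the replicate number as a block, edgeR called 0 genes (1104 at an unadjusted p under 0.05), and Tnfrsf12a had a log2 change of 1.80 (adjusted p = 0.253); the ratio of the pair differed by 1.87 (exact sign permutation p = 0.25, the smallest possible). Whether the numbers pair the hearts cannot be settled from these data. Deviations from the group means correlated at 0.078, 0.112 and -0.037 for numbers 1, 2 and 3. Control replicates 1 and 2 correlated best with their own number, and control replicate 3 did not. With 3 libraries per group, correlations this weak neither show nor exclude a pairing. Counts of a few fragments limit Tnf, Ltb, Tnfsf9 and the 14 members not tested.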
